A study of Cavia porcellus with 18 samples.

Results

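A set of 334 transcription start sites of the guinea pig genome, selected on their measured CG methylation in both bisulfite assays of the hippocampus, is described. A start site was included when at least 3 distinct CG sites lay within 1000 bases of it and the mean of these sites was at least 60% in each assay. Of 20111 listed transcripts, 7335 had a measured CG site in that window and 3239 had at least 3. The 334 methylated start sites made up 10.3% of these 3239 and belonged to 323 genes on 108 scaffolds. They are set beside the 1638 start sites (50.6% of the 3239) with a mean of 20% or less in both assays, called unmethylated here. The other 1267 lay between these limits or differed between the assays.

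All measurements came from the hippocampus of 3 guinea pigs (Cavia porcellus), which were wild type males, 12 weeks old, with no treatment named in the labels. In ChIP-bisulfite, fixed and sonicated chromatin was precipitated with an antibody to H3K4me1, the histone mark of enhancers and promoter flanks, and the DNA recovered was sequenced after bisulfite treatment. In reduced representation bisulfite sequencing (RRBS), DNA cut by MspI and ApeKI was read without selection for chromatin. RNA polymerase II phosphorylated on serine 5 (Pol II PS5), the form found at initiating genes, was mapped by ChIP-seq. Every deposited value combined the animals, so no spread between animals could be computed and no test over animals was possible. SDs below are over start sites or CG sites, which share animals and reads and are not replicates. Exact 95% intervals (Clopper-Pearson) cover counting error only.

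In vertebrates, the cytosine of most CG dinucleotides is methylated, while CG-rich promoters (CpG islands) are usually free of methylation whether or not their gene is expressed. Methylation of a CG-rich promoter is a mark of stable silencing, as on the inactive X chromosome, at imprinted genes and at germline genes in somatic tissue. CG-poor promoters are often methylated in tissues that do not use them, and the bodies of transcribed genes are generally methylated. A level measured in tissue averages over its cell types.

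The levels that chose the methylated start sites are given as a description. Their window mean averaged 81.9% ± 13.6 in ChIP-bisulfite and 81.4% ± 11.6 in RRBS (SD over 334 start sites). In the unmethylated start sites it averaged 3.17% ± 5.42 in ChIP-bisulfite and 4.75% ± 5.51 in RRBS (SD over 1638). The methylated start sites were spread over the whole range from 60% to 100%, and 109 of them exceeded 80% in both assays. The assays differed by a mean of 0.565 percentage points over the methylated start sites, with an SD of 14.0 points. Few start sites were high in either assay and low in the other. Of the 553 start sites at 60% or more in RRBS, 334 (60.4%) were also at 60% or more in ChIP-bisulfite, and of the 457 at 60% or more in ChIP-bisulfite, 73.1% were so in RRBS. At 20% or less, the shared start sites were 90.3% of the 1814 low in RRBS and 85.1% of the 1925 low in ChIP-bisulfite. Only 32 start sites were at 60% or more in RRBS and at 20% or less in ChIP-bisulfite, and 6 were the reverse.

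**Figure D1:**
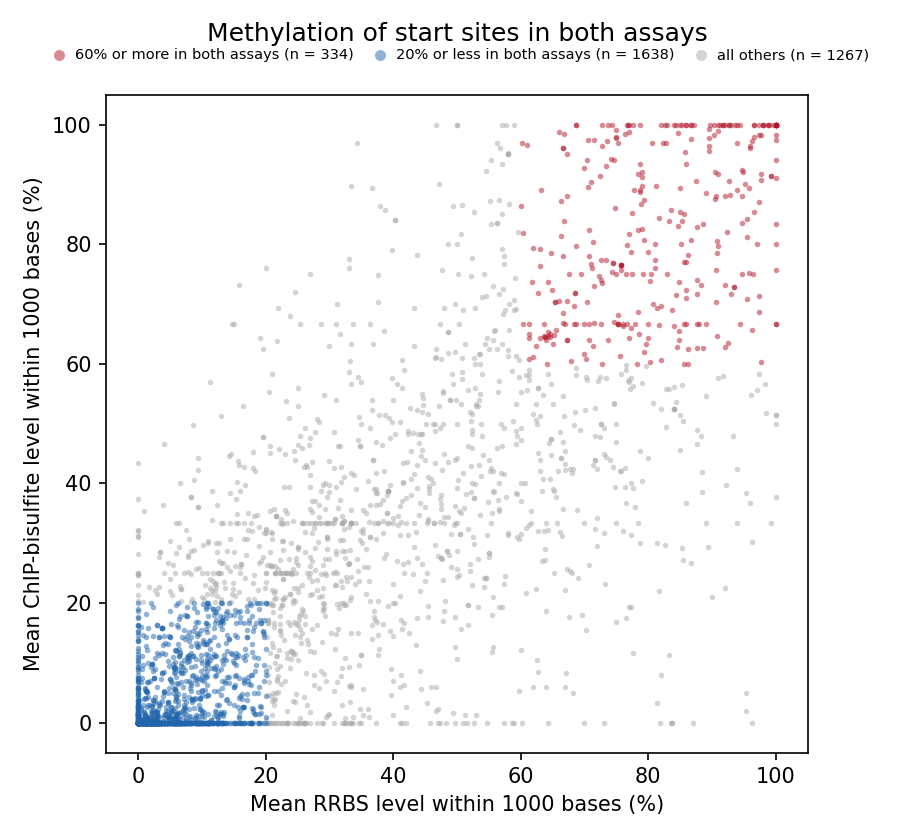
Mean level of the CG sites within 1000 bases of each of 3239 start sites, in RRBS (x axis, %) and in ChIP-bisulfite (y axis, %), 1 point per start site. The 334 methylated start sites fill the upper right corner and the 1638 unmethylated start sites are packed near 0, while 32 and 6 start sites lie in the opposite corners.

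The 60% limit cut through a continuous range of levels. Just inside it were the start site at position 25120401 of scaffold_7, with 60% in ChIP-bisulfite and 64.2% in RRBS, and that at position 24151757 of scaffold_8, with 60% and 86.2%. The start site at position 27488912 of scaffold_15 had 86.3% and 60%. Just outside it were position 12734052 of scaffold_53 with 59.9% in ChIP-bisulfite and 76.6% in RRBS, and position 519269 of scaffold_250 with 59.7% and 79.7%. Position 13740004 of scaffold_35 had 60.7% and 59.7%. The start sites on either side of the limit therefore differed by less than 1 percentage point in the assay that decided their class.

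The methylated start sites rested on few CG sites. They had a median of 4 measured sites (range 3 to 15), against 5 (range 3 to 216) in the unmethylated start sites and 4 in all 3239. Exactly 3 sites were available for 160 methylated start sites (47.9%, exact 95% interval 42.4 to 53.4%), against 390 unmethylated start sites (23.8%, 21.8 to 25.9%). With 6 or more sites there were 49 methylated start sites (14.7%) and 721 unmethylated start sites (44.0%). Seen the other way, 16.3% of all start sites with 3 measured sites were methylated in both assays, 12.6% of those with 4, 8.91% of those with 5 and 4.32% of those with 6 or more. The part of the number of sites in the results below was not tested beyond the values given by number of sites. The files list some CG dinucleotides on both strands at neighbouring positions. Counted with both strands joined, 308 methylated start sites (92.2%) still had 3 sites or more. Depth was alike, with a median over start sites of 18 RRBS reads per CG site in the methylated start sites and 16.5 in the unmethylated ones, and 10 reads as the lowest count deposited.

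Measured CG sites seldom lay at the start site itself. Only 97 methylated start sites (29.0%) had a site within 200 bases, a share close to the 28.8% (472) of the unmethylated start sites. In 74 of these 97 the sites within 200 bases alone also averaged at least 60% in both assays, and in 23 they did not. For the other 237 methylated start sites the level was measured only between 200 and 1000 bases away. The sites of a methylated start site spanned a median of 306.5 bases, against 293.5 in the unmethylated ones, and all sites fell within 100 bases in 89 (26.6%) against 480 (29.3%). Counted by overlap, the 334 windows formed 317 groups that shared no CG site, and 30 start sites shared a site with another methylated start site.

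Within a window the CG sites were not uniformly methylated. Of the 1392 site entries of the methylated start sites, 52.9% were at 80% or more in both assays and 2.30% at 20% or less in both. Every site was at 60% or more in both assays in 87 methylated start sites (26.05%). At least 1 site at 20% or less in ChIP-bisulfite was present in 133 (39.8%), and at least 1 such site in RRBS in 44 (13.2%). The median SD among the sites of a start site was correspondingly larger in ChIP-bisulfite (28.6 points) than in RRBS (16.7 points). Sites at 30% or less in ChIP-bisulfite and 70% or more in RRBS made up 6.11% of the entries, and sites with the opposite pattern 1.51%. Read depth was deposited per position for RRBS only, so the depth of the ChIP-bisulfite levels is not used here.

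The methylated start sites with most CG sites show how the methylation was laid out. At position 41382703 of scaffold_14 (minus strand, ENSCPOT00000000965), 12 of 15 sites lay between -959 and -830 bases, negative being upstream. These 12 read 95% to 100% in ChIP-bisulfite and 68% to 100% in RRBS. The remaining 3 sites, at 678, 689 and 698 bases downstream, read 0% in both assays, and a Pol II PS5 peak with a score of 8.21 covered the start site between the 2 clusters. The window mean of 79.7% and 68.6% thus joined a methylated stretch upstream and an unmethylated stretch downstream of the start site. A similar division was seen at position 20725152 of scaffold_23 (plus strand), which had 9 sites. Its 7 sites from -865 to -685 bases read 92% to 100% in ChIP-bisulfite and 65% to 100% in RRBS, and its sites at 603 and 628 bases read 0% in both. A Pol II PS5 peak with a score of 6.11 lay 167 bases from this start site.

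Position 567875 of scaffold_27 (plus strand, 14 sites) had the opposite arrangement. The sites at -53 and -20 bases read 0% and 5% in ChIP-bisulfite and 0% in RRBS, and the site at 38 bases read 27% and 47%. The 11 sites from 139 to 598 bases downstream read 92% to 100% in ChIP-bisulfite and 64% to 100% in RRBS. Here the bases next to the start site were nearly free of methylation, and the nearest Pol II PS5 peak lay 922 bases away with a score of 5.81. Position 38289846 of scaffold_15 (minus strand, 13 sites) was near the limit with 60.8% in ChIP-bisulfite and 61.2% in RRBS, and its site nearest to the start, at 201 bases, read 0% in both. Position 5537840 of scaffold_24 (minus strand, 12 sites) averaged 73.7% in ChIP-bisulfite and 84.8% in RRBS, and no site there fell below 67% in RRBS, while ChIP-bisulfite ranged from 15% to 100%. Position 22047126 of scaffold_28 (plus strand, 10 sites) averaged 83.8% and 83.3%. Both were far from any Pol II PS5 peak, the nearest being 89544 bases away on scaffold_24 and 49577 bases away on scaffold_28. Position 22932306 of scaffold_1 (plus strand, 9 sites) averaged 64.3% in ChIP-bisulfite and 79.9% in RRBS, with the nearest peak 30195 bases away. At position 63474 of scaffold_687 (plus strand, 9 sites, means 64.6% and 63.8%), the site at -706 bases lay inside a Pol II PS5 peak and read 0% in both assays. The other 8 sites there, from -463 to -235 bases, read 0% to 100% in ChIP-bisulfite and 35% to 100% in RRBS.

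**Figure D2:**
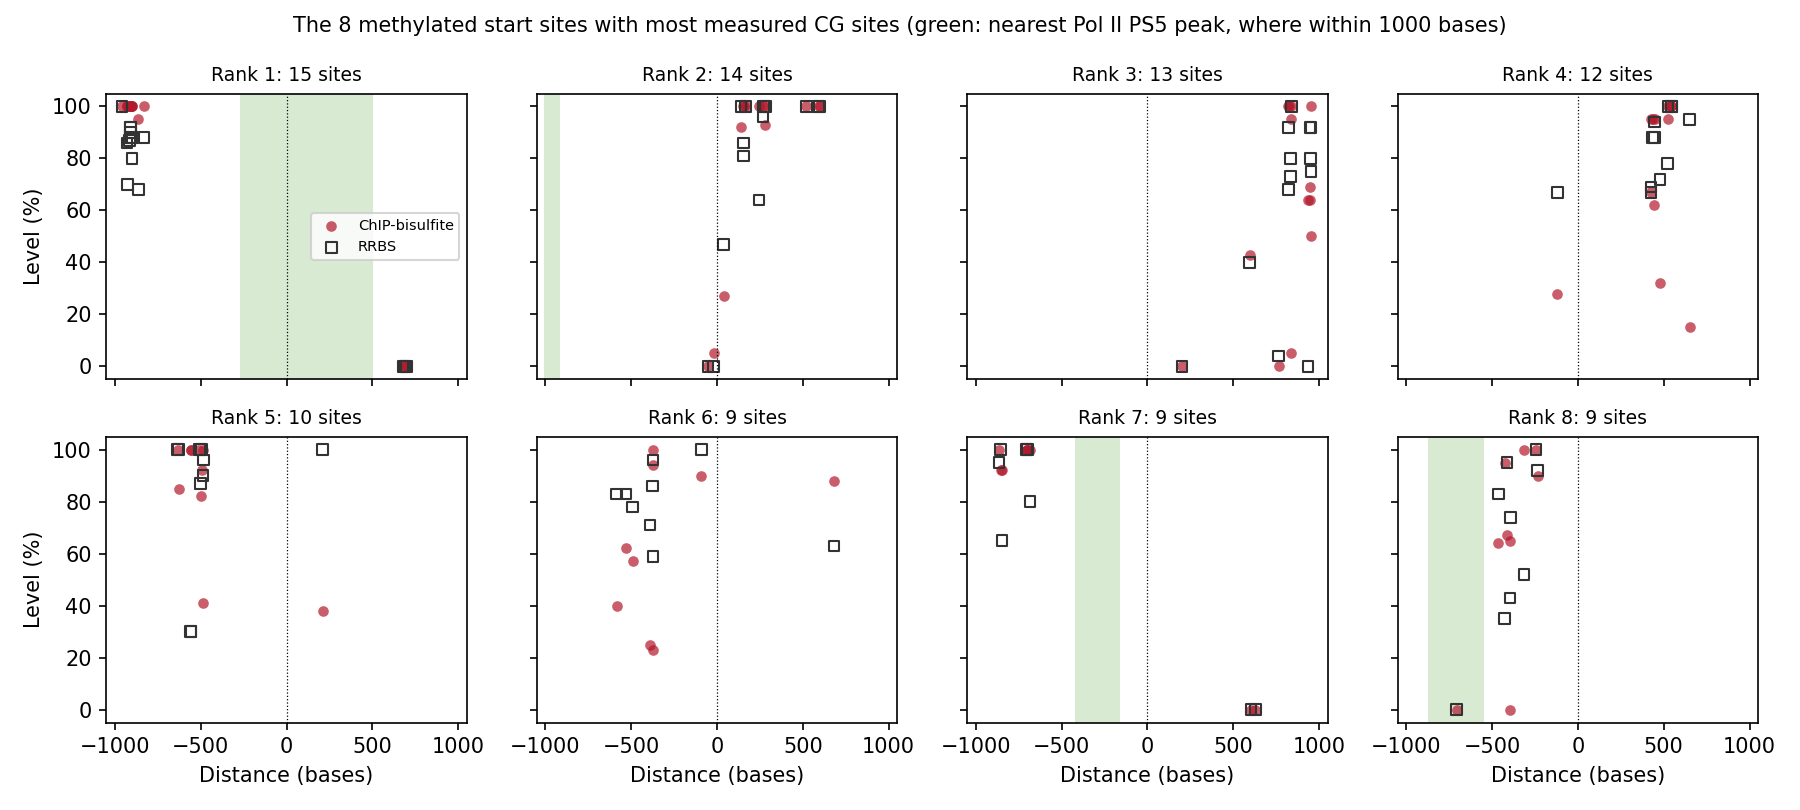
CG methylation level (y axis, %) against distance from the start site (x axis, bases, negative upstream) for the 8 methylated start sites with most measured CG sites, ranked by number of sites, with filled circles for ChIP-bisulfite and open squares for RRBS. The panels with 15 and 14 sites, and the seventh panel, hold separate stretches of methylated and unmethylated sites, and green bands mark a Pol II PS5 peak.

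The methylated start sites lay in H3K4me1 peaks with a lower density of CG cytosines. The number of C positions that the authors counted per H3K4me1 peak was divided by the peak width. The peaks holding the window sites had a median of 38.9 C positions per 1000 bases in the methylated start sites (mean 43.6 ± 22.4 SD, n = 334). In the unmethylated start sites the median was 60.8 (mean 69.9 ± 37.4 SD, n = 1636), and in all start sites it was 52.8. The ranges overlapped widely, with 4.18 to 133 in the methylated and 7.98 to 257 in the unmethylated start sites. When all start sites were divided into 3 classes of equal size by this density, 16.7% of the class with the lowest density were methylated in both assays, 9.55% of the middle class and 4.73% of the class with the highest. Still, 51 methylated start sites lay in the class with the highest density, above 67.2 C positions per 1000 bases.

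**Figure D3:**
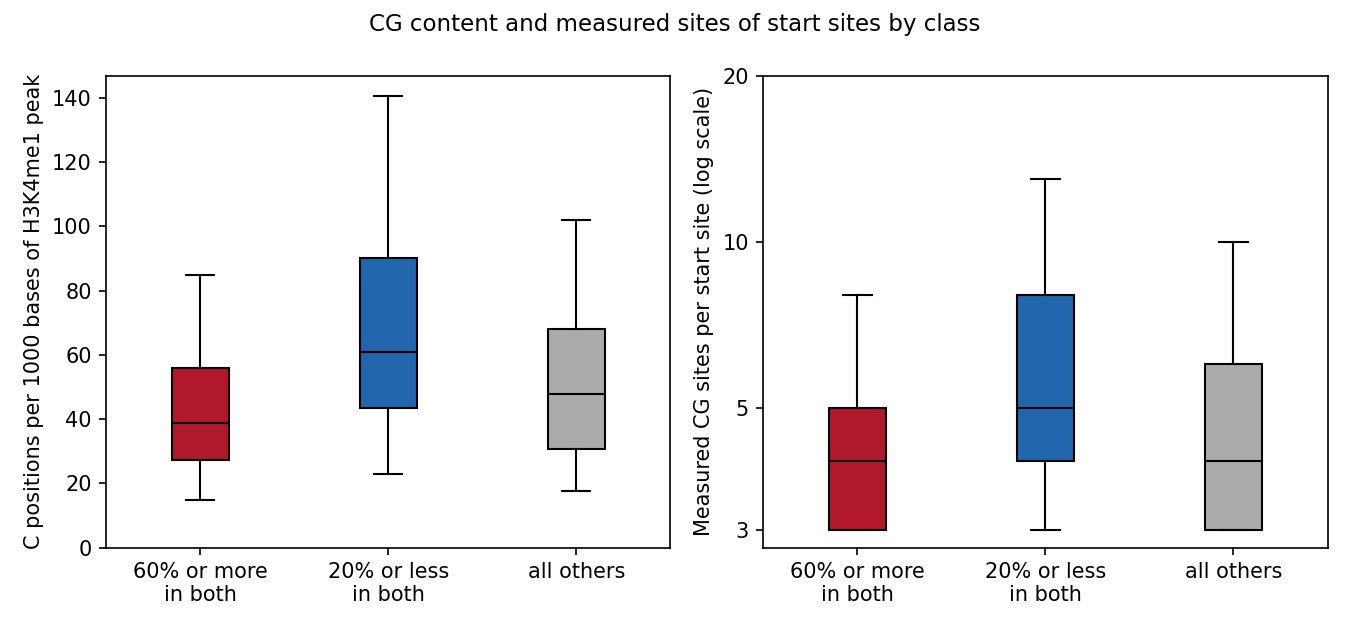
C positions per 1000 bases of the H3K4me1 peak (left) and measured CG sites per start site on a log scale (right) in the methylated, unmethylated and other start sites; boxes span the quartiles, lines are medians and whiskers run from the 5th to the 95th percentile. The methylated start sites have the lowest median density (38.9) and a median of 4 sites, against 60.8 and 5 in the unmethylated start sites.

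H3K4me1 itself covered both kinds of start site. The start site lay inside an H3K4me1 peak in 325 methylated start sites (97.3%, exact 95% interval 94.9 to 98.8%) and in 1567 unmethylated ones (95.7%, 94.6 to 96.6%), against 96.5% of all 3239. All but 15 window sites of the 3239 start sites lay in an H3K4me1 peak of the authors' table of averages, so a high share followed from the choice of start sites. The peak at the start site had a median width of 7007 bases in the methylated and 6122 bases in the unmethylated start sites.

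Pol II PS5 peaks were less frequent at the methylated start sites. A peak lay within 1000 bases of 60 of them (18.0%, exact 95% interval 14.0 to 22.5%), against 720 unmethylated start sites (44.0%, 41.5 to 46.4%) and 37.5% of all 3239. Within 500 bases the counts were 35 (10.5%, 7.41 to 14.3%) and 628 (38.3%, 36.0 to 40.7%). A peak covered the start site in 8 methylated start sites (2.40%, 1.04 to 4.66%) and in 337 unmethylated ones (20.6%, 18.6 to 22.6%). The intervals of both groups did not overlap at any of these distances. Where a peak lay within 1000 bases, its score, the authors' own value, had a median of 3.99 at the methylated and 5.39 at the unmethylated start sites, while the median of the whole list of 67423 peaks was 3.40. The window sites themselves rarely fell inside a Pol II PS5 peak, with 17 of the 1392 entries (1.22%) at methylated and 1281 of 10939 (11.7%) at unmethylated start sites.

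The difference in peak share was seen in the classes of low and middle CG density, and not beyond counting error in the class with the highest. In the class with the lowest density, 28 of 180 methylated start sites (15.6%, exact 95% interval 10.6 to 21.7%) had a peak within 1000 bases, against 250 of 381 unmethylated ones (65.6%, 60.6 to 70.4%). In the middle class the shares were 20.4% of 103 and 54.3% of 554. In the class with the highest density they were 21.6% of 51 methylated start sites (11.3 to 35.3%) and 23.8% of 701 unmethylated ones (20.7 to 27.2%), and there the intervals overlapped. By number of CG sites, the methylated share was 16.9% with 3 sites, 10.6% with 4, 17.5% with 5 and 34.7% with 6 or more (17 of 49, 21.7 to 49.6%). The unmethylated share was 50.3%, 49.8%, 47.5% and 37.0% (33.5 to 40.7%) in the same classes. With 6 or more sites, too, the intervals of both groups overlapped. Among start sites with a CG site within 200 bases, 16 of 97 methylated ones (16.5%, 9.73 to 25.4%) and 193 of 472 unmethylated ones (40.9%, 36.4 to 45.5%) had a peak within 1000 bases.

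Farther away, at 1000 to 5000 bases, the order was the other way round on both sides. A Pol II PS5 peak lay 1000 to 5000 bases upstream of 74 methylated start sites (22.2%, exact 95% interval 17.8 to 27.0%), against 170 unmethylated ones (10.4%, 8.94 to 12.0%) and 14% of all 3239. On the downstream side it was 57 (17.1%, 13.2 to 21.5%) against 156 (9.52%, 8.15 to 11.05%), with 9.73% over all. In the bins of 500 bases just upstream and just downstream of the start, 8.68% and 4.79% of the methylated start sites had a peak, against 36.6% and 22.7% of the unmethylated ones. From -4500 to -3000 bases the shares per bin were 4.19% to 5.09% in the methylated and 1.53% to 1.71% in the unmethylated start sites. Within 5000 bases on either side, 161 methylated start sites (48.2%) and 915 unmethylated ones (55.9%) had a peak, so the groups were closer at that distance. Among start sites with at least 5 CG sites, the upstream difference was 6.24 points with an approximate 95% interval of -1.99 to 14.5, which includes 0. The nearest peak was a median of 5626 bases away from a methylated and 2454 bases from an unmethylated start site.

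**Figure D4:**
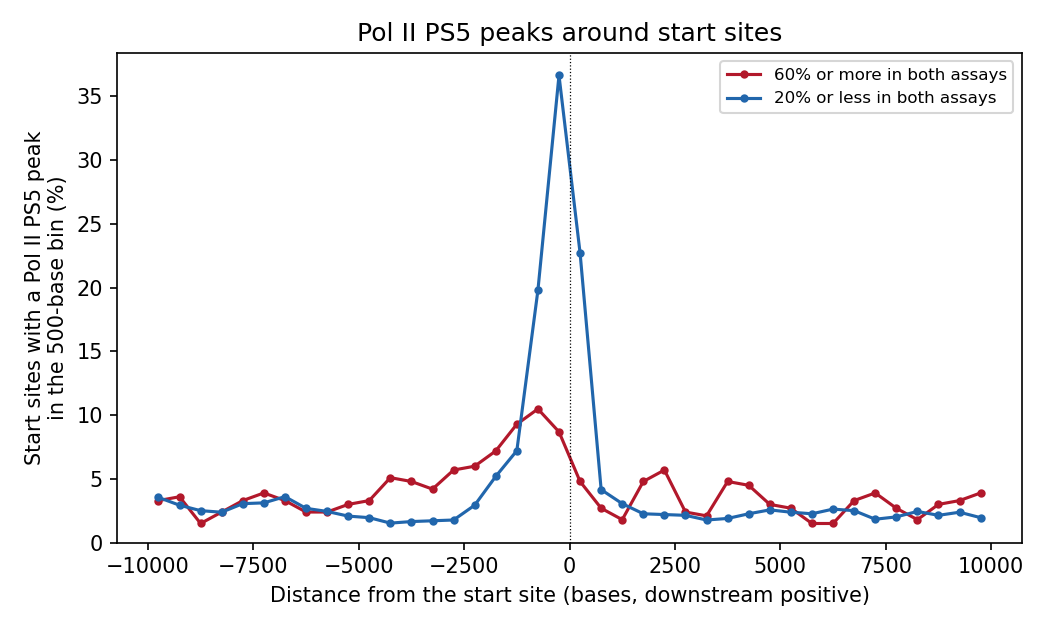
Percent of start sites with a Pol II PS5 peak (y axis) in bins of 500 bases by distance from the start site (x axis, bases, downstream positive), for 334 methylated and 1638 unmethylated start sites. The unmethylated curve has a sharp maximum of 36.6% just upstream of the start, while the methylated curve is low and broad. It lies above the unmethylated curve from -4500 to -1000 bases and from 1500 to 5000 bases.

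Of the methylated start sites with an upstream peak, 72 had none within 1000 bases. These peaks lay a median of 2598.5 bases upstream with a median score of 5.01, against 2127 bases and 3.67 for the 125 unmethylated start sites of the same kind. The upstream peak lay within 1000 bases of another listed start site in 17 of the 72 (23.6%) and in 30 of the 125 (24.0%), so most were not at a listed start site. The CG sites within 500 bases of these upstream peaks were measured at few start sites. The 65 such sites at 26 methylated start sites averaged 23.7% ± 37.0 in ChIP-bisulfite and 26.6% ± 35.1 in RRBS (SD over sites), and 53.8% of them were at 20% or less in both assays. The 165 such sites at 40 unmethylated start sites averaged 10.6% ± 24.6 and 16.4% ± 21.9, with 63.0% at 20% or less in both. Among the methylated start sites with an upstream peak is position 3813858 of scaffold_95 (minus strand), whose 3 sites from -315 to -280 bases read 100% in ChIP-bisulfite and 87% to 100% in RRBS. The nearest Pol II PS5 peak there lay 2039 bases upstream, with a score of 9.10, and no upstream CG site of this start site beyond the window was measured in both assays.

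CG sites inside Pol II PS5 peaks had lower mean levels than those outside peaks, beyond the window of both kinds of start site. Between 1000 and 10000 bases upstream, 23 sites inside a peak, at 9 methylated start sites, averaged 2.739% ± 11.3 in ChIP-bisulfite and 8.43% ± 20.2 in RRBS. The 1128 sites outside peaks averaged 44.4% ± 42.8 and 52.8% ± 36.2. Downstream over the same distance, 26 sites inside a peak averaged 19.6% ± 31.6 and 26.8% ± 35.3, against 46.8% ± 44.0 and 55.8% ± 37.5 for 938 sites outside. At the unmethylated start sites, upstream sites averaged 15.8% ± 26.01 in ChIP-bisulfite inside peaks (n = 486, at 47 start sites) and 28.5% ± 39.3 outside (n = 4979). Their downstream sites averaged 17.3% ± 24.996 inside (n = 310, at 42 start sites) and 39.6% ± 43.4 outside (n = 4850). The sites inside peaks near methylated start sites are few, and in both groups such sites share peaks. The unmethylated values include sites on scaffold_927. There 3 start sites list 494, 509 and 546 sites 1000 to 10000 bases upstream, many of them shared. These values were not recomputed without that scaffold. Within the window, where the choice itself made the mean level high, 16 distinct sites at 9 methylated start sites lay inside a peak and averaged 66.6% ± 46.2 and 67.6% ± 40.4.

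The deposited table also gives each transcript a Pol II PS5 score, with 0 where there is none. A score was present for 119 methylated start sites (35.6%, exact 95% interval 30.5 to 41.0%), against 850 unmethylated ones (51.9%, 49.4 to 54.3%), 47.6% of all 3239 and 36.8% of all 20111 transcripts. The share in the methylated start sites was thus below that of the unmethylated ones. It was close to that of all transcripts, most of which had fewer than 3 measured sites in the window. Among start sites with at least 5 CG sites the difference was -9.36 points, and its approximate 95% interval of -19.9 to 1.22 included 0. By CG density, the shares were 35% and 71.1% in the lowest class and 37.9% and 59.0% in the middle class. In the highest class they were 33.3% of 51 methylated (20.8 to 47.9%) and 35.9% of 701 unmethylated start sites (32.4 to 39.6%). There the intervals overlapped. Where present, the score had a median of 3.38 (range 2.30 to 17.7) in the methylated and 4.05 (range 2.11 to 20.9) in the unmethylated start sites. The sources used here do not say how the authors assigned the score. It equalled the score of a peak within 1000 bases in 37 of the 119 methylated start sites (31.1%, 22.9 to 40.2%) and in 433 of the 850 unmethylated ones (50.9%, 47.5 to 54.4%). It equalled the score of a peak farther downstream in 42 (35.3%, 26.8 to 44.6%) and 143 (16.8%, 14.4 to 19.5%), and that of a peak farther upstream in none of either group. These intervals did not overlap between the groups, but a score can equal that of a near peak only where there is one. Of the scored start sites with a peak within 1000 bases, the score was that of such a peak in 37 of 50 methylated and 433 of 633 unmethylated ones. The lower share among all scores is therefore not separate from the lower share with a near peak. No single peak of that score was found for 40 methylated (33.6%) and 274 unmethylated start sites (32.2%). The search reached 100000 bases to each side, and scores combined from several peaks were not looked for. Neither a score nor a peak within 5000 bases was found for 136 methylated (40.7%) and 576 unmethylated start sites (35.2%).

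A few methylated start sites carried strong Pol II PS5 peaks. The highest score, 17.7, belonged to position 367372 of scaffold_229 (minus strand, ENSCPOT00000022112), where the peak covered the start site. Its 3 CG sites at 65, 78 and 86 bases downstream lay inside that peak and read 100% in ChIP-bisulfite and 94% to 100% in RRBS, with 15 or 16 RRBS reads each. Methylation of nearly every RRBS read and a Pol II PS5 peak were thus recorded over the same bases, in mixed cells and pooled animals. RRBS reads were not selected for chromatin, and the depth of the ChIP-bisulfite levels there is not known. Position 353430 of scaffold_36 (plus strand) also had a peak over the start, with a score of 17.5. Its sites at -839, -837 and -822 bases read 100% in ChIP-bisulfite and 61% to 78% in RRBS. Its 3 downstream sites, at 538, 663 and 686 bases, read 42%, 0% and 92% by ChIP-bisulfite, against 50%, 55% and 77% by RRBS.

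Position 11983983 of scaffold_51 (minus strand) had a peak 65 bases away with a score of 8.47. Its CG sites lay at the edges of the window, at -999, 993 and 994 bases, and the neighbouring positions 993 and 994 read 98% and 100% in ChIP-bisulfite but 100% and 8% in RRBS. Position 8995209 of scaffold_63 (minus strand) had 8 sites, from 84 to 487 bases downstream, with means of 80.5% in ChIP-bisulfite and 90.8% in RRBS, and a peak 455 bases away with a score of 7.90. Among these highest scores, only the start site on scaffold_229 had its CG sites inside the peak.

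The 60 methylated start sites with a peak within 1000 bases had window means of 78.1% ± 12.2 in ChIP-bisulfite and 78.1% ± 12.2 in RRBS. The 274 without had 82.8% ± 13.8 and 82.1% ± 11.3. These means are among the values that chose the start sites. A Pol II PS5 score was present for 50 of the 60 (83.3%) and for 69 of the 274 (25.2%). At 1000 to 10000 bases downstream, ChIP-bisulfite averaged 61.9% ± 30.5 with a peak (n = 43) and 49.1% ± 34.7 without (n = 196). RRBS averaged 62.2% ± 29.0 and 59.96% ± 28.5. The unmethylated start sites also had higher averages with a peak. ChIP-bisulfite there was 54.2% ± 35.1 with a peak (n = 502) and 40.4% ± 34.6 without (n = 614), and RRBS was 58.0% ± 30.7 and 46.8% ± 31.4.

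Beyond the window the levels come from CG sites that the choice did not use. These sites were placed by distance alone, so those downstream may lie past the end of the gene. At 1000 to 10000 bases downstream the methylated start sites averaged 51.4% ± 34.2 in ChIP-bisulfite and 60.4% ± 28.5 in RRBS (SD over 239 start sites with a site there). The unmethylated start sites averaged 46.6% ± 35.5 and 51.9% ± 31.6 (n = 1116), so the groups differed by 4.82 points in ChIP-bisulfite (approximate 95% interval over start sites 0.00376 to 9.63) and by 8.50 points in RRBS (4.43 to 12.6). The ChIP-bisulfite interval included 0 under 5 of 12 alternatives, among them sites at 10000 to 50000 bases, and the RRBS interval at 10000 to 50000 bases alone. The order was not kept in every class of CG density. In the lowest class ChIP-bisulfite averaged 53.7% in the methylated and 57.5% in the unmethylated start sites, and RRBS 63.8% and 60.9%. In the middle class these averages were 52.7% and 53.8%, and 58.1% and 60.6%. In the highest class they were 41.5% and 35.9%, and 53.1% and 41.0%. The part of CG density in the difference was not tested. At 10000 to 50000 bases downstream the averages were 48.8% ± 30.8 and 58.0% ± 25.98 in the methylated (n = 173), against 47.7% ± 33.6 and 57.2% ± 29.0 in the unmethylated start sites (n = 921). Upstream, at 1000 to 10000 bases, the methylated start sites averaged 44.9% ± 32.7 and 55.2% ± 28.3 (n = 236), against 35.3% ± 34.9 and 41.4% ± 32.3 (n = 1006).

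Of the zones outside the window, the groups lay farthest apart in those next to it. From 1000 to 2000 bases downstream, the nearest sites that the choice did not use, they differed by 14.0 points in ChIP-bisulfite and 16.1 points in RRBS, with 56.3% ± 37.2 and 62.5% ± 30.01 at 90 methylated start sites against 42.3% ± 40.4 and 46.4% ± 36.6 at 563 unmethylated ones. From 1000 to 2000 bases upstream they differed by 13.0 and 16.0 points, with 41.7% ± 37.3 and 48.9% ± 36.6 at 80 methylated start sites against 28.7% ± 36.2 and 33.0% ± 34.2 at 509 unmethylated ones. From 2000 to 5000 bases downstream the methylated start sites differed from the unmethylated ones by -0.34 points in ChIP-bisulfite and by 5.47 points in RRBS.

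**Figure D5:**
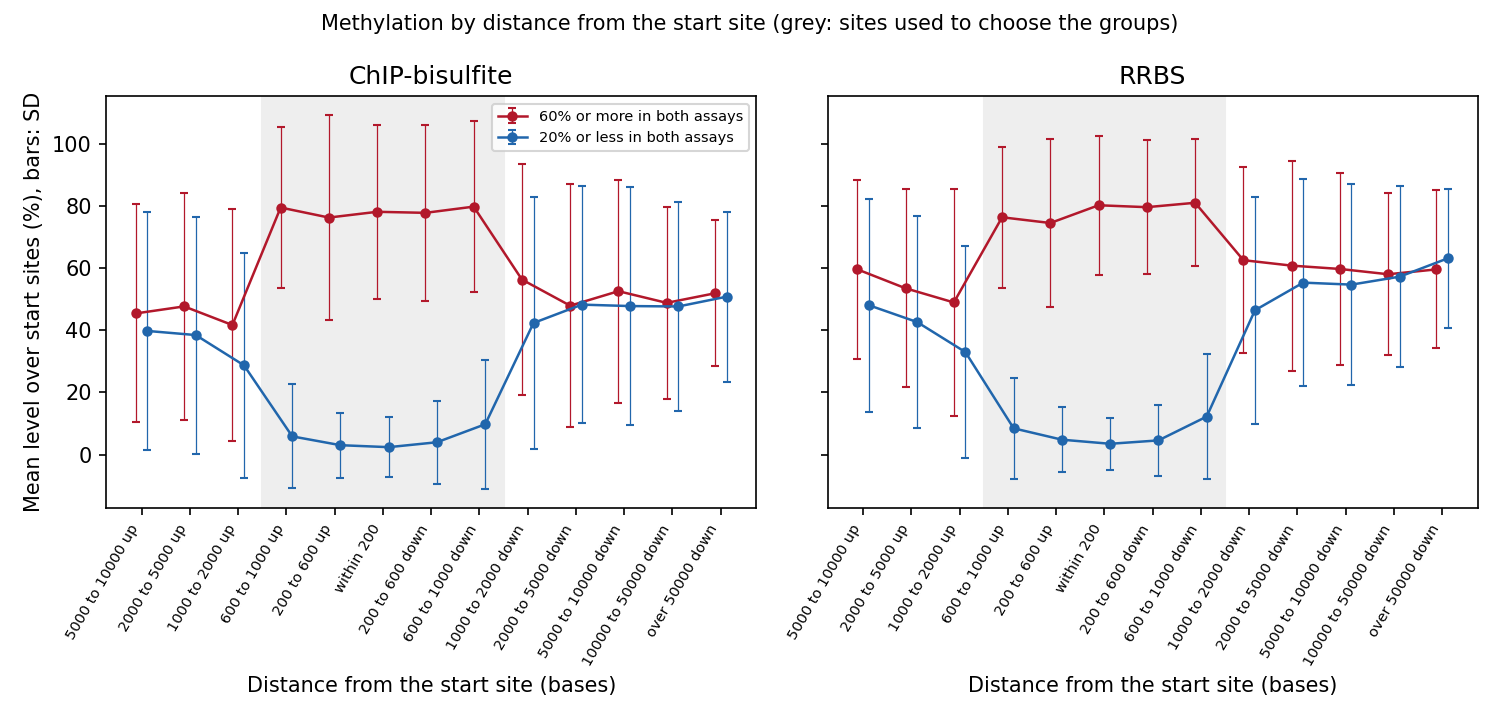
Mean level by zone of distance from the start site (x axis, bases, upstream to downstream) in ChIP-bisulfite (left) and RRBS (right), y axis in %, for methylated and unmethylated start sites; bars are the SD over start sites with a site in the zone and run beyond 0 and 100%, and grey marks the zones that chose the groups. Outside the grey area the curves differ by 14.0 and 16.1 points at 1000 to 2000 bases downstream and by 1.16 and 0.775 points at 10000 to 50000 bases.

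Low sites lay near fewer of the methylated than of the unmethylated start sites. At least 1 site at 20% or less in both assays lay 1000 to 10000 bases upstream of 111 of the 236 methylated start sites with sites there (47.0%, exact 95% interval 40.5 to 53.6%), against 572 of 1006 unmethylated ones (56.9%, 53.7 to 59.9%) and 52.9% of all with sites there. Downstream it was 84 of 239 (35.1%, 29.1 to 41.6%) against 503 of 1116 (45.1%, 42.1 to 48.0%), with 41.99% over all, and the intervals of both groups did not overlap on either side. A start site with more measured sites has more occasions to hold a low one, and this number was not matched. Upstream there were 1194 sites at the methylated and 7950 at the unmethylated start sites, and downstream 993 and 6239. The part of the number of sites in these shares was not tested. Every site downstream was at 60% or more in both assays in 43 methylated (18.0%) and 181 unmethylated start sites (16.2%).

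Downstream of single start sites, levels beyond the window ran from fully methylated to unmethylated. At position 28578503 of scaffold_3 (plus strand), 3 sites from -86 to -63 bases read 100% in both assays, and 3 sites from 2923 to 2951 bases read 100% in ChIP-bisulfite and 95% to 100% in RRBS. At position 243235 of scaffold_81 (plus strand), where the window averaged 97.5% in ChIP-bisulfite and 70.5% in RRBS, 4 sites from 6218 to 8689 bases read 100% in both. Position 8497066 of scaffold_20 (minus strand) had 64.5% and 64.7% in the window and 100% and 98.0% at 3 sites downstream. These 3 had the highest downstream levels of the methylated start sites with at least 3 sites there.

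The opposite was seen at position 41174803 of scaffold_15 (plus strand). Its window averaged 90.7% in ChIP-bisulfite and 97.7% in RRBS, while 9 sites from 4290 to 9559 bases downstream averaged 1.11% and 0%. At position 3813858 of scaffold_95, described above for its upstream peak, the 3 sites from 8536 to 8645 bases downstream read 0% in both assays with 10 RRBS reads each. Position 14915977 of scaffold_10 (plus strand) averaged 66.7% and 67.0% in the window, and 3 sites from 7995 to 8085 bases downstream read 0% in both, with 12 to 41 reads.

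Alternative start sites of the same genes gave little to compare. The genes of 7 methylated start sites listed another start site more than 1000 bases away, 8 in all, of which 2 were unmethylated and 6 had under 3 measured sites. Within 2000 bases of an unmethylated start site lay 1 methylated start site. The unmethylated group held both start sites on the mitochondrial genome and 5 on scaffold_927, of which the 3 with most sites had 172 to 216, and the methylated group had at most 15 sites at any start site.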

How the data were processed

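Methylation of CG sites in ChIP-bisulfite and RRBS was deposited as whole percent per site and transcript, per the file headers. Reads per C position were deposited as counts for RRBS, and Pol II PS5 peaks, H3K4me1 peaks and transcripts carry the authors' score. The number of C positions per H3K4me1 peak and the start site distances (other units) were also given by the authors. Tools named in the submitters' processing notes, with no role or order, are BSMAP 2.74, Bismark 0.12.5, Bowtie2 2.2.3, HOMER 4.6, MACS2, methylKit and SAMtools 1.1. The genome build is not given in the sources used here, and positions are printed as the files have them, with no statement of whether counting starts at 0 or 1. Values combine 3 libraries each for H3K4me1 ChIP-seq, ChIP-bisulfite and Pol II PS5 and 6 for RRBS, and 3 RRBS digestion controls were not used.

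Of 241970 lines, 2766 that repeated a site of a transcript were dropped. The start position was computed from site position and listed distance. A peak's distance is that of its nearest edge, and a score was matched to a peak within a tolerance of 1e-06. No test was run, because a pooled value gives no spread between animals. Shares have exact 95% intervals. The approximate 95% intervals of differences use a normal approximation that treats start sites as independent. They cover no spread between animals, so whether they include 0 is a description and not a test over animals. Python 3.11.15, pandas 2.3.3, numpy 2.4.6 and scipy 1.17.1 were used. The assignment of classes, run on simulated data with 600 start sites, recovered 100% of them. The simulated levels lay far from the limits and were the same in both assays. This run therefore checked the code only and says nothing on how reliable the classes of measured start sites are.

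The start sites named are the 8 with most CG sites, the 5 with the highest Pol II score, the 5 with the highest peak score within 1000 bases (the same 5), the 3 lowest and 3 highest in downstream level, those 3 just inside and 3 just outside the limit, and the 3 unmethylated ones with most sites. The members, the limits and the gene lists were chosen with earlier results of these data known. Transcript identifiers could not be paired with gene symbols from the tables used here, so gene lists and cell type markers were not analysed and the tissue was not checked by markers. Promoter sequence was not analysed here.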

Additional observations from a re-analysis of the deposited data

How the results depend on the processing

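Of 73 recomputed values under 15 settings, 50 stayed within the interval or range of the reported value, 23 moved, and none changed sign. The classes of CG density were not among these settings. Differences are methylated minus unmethylated, in percentage points. The number of methylated start sites (334) was 140 with a window of 500 bases, 782 with 2000 bases, 89 with at least 5 sites, 113 with limits of 80% and 10%, and 129 with sites of at least 20 reads. The median number of sites became 6 with at least 5 sites. The difference in the share with a Pol II score (-16.3) was -22.3 with 500 bases, -4.56 with 2000 bases and -9.36 with at least 5 sites (approximate 95% interval -19.9 to 1.22). For a peak within 1000 bases (-26.0) it was -11.5 with a window of 2000 bases, -12.7 with at least 5 sites, -32.1 with limits of 80% and 10%, and -7.66 with a peak distance of 5000 bases. For an upstream peak (11.8), a result added after the data were seen, it was 3.11 with 2000 bases, 6.24 with at least 5 sites (-1.99 to 14.5), 21.8 with limits of 80% and 10%, and 19.2 with at least 20 reads. The downstream level difference in ChIP-bisulfite (4.82) was 13.8 with at least 5 sites, 10.7 with limits of 80% and 10%, and 11.1 with sites pooled. It was lower, 1.003 (-6.63 to 8.63), with a window of 500 bases and 1.16 (-3.92 to 6.24) at 10000 to 50000 bases. Its interval also included 0 with 1 entry per locus, with strands joined and without scaffold_927 and the mitochondrial genome. In RRBS (8.50) it was 13.3 with at least 5 sites, 0.775 at 10000 to 50000 bases and 13.2 with sites pooled. The cause of these moves was not tested. With sites pooled, the 6239 unmethylated entries included 258, 288 and 237 from the start sites with most sites on scaffold_927. Their means were 12.2% to 12.8% in ChIP-bisulfite and 23.9% to 24.9% in RRBS. Joining strands and leaving out scaffold_927 with the mitochondrial genome were also chosen after the data were seen, and neither moved a value beyond the reported interval or range. No paired analysis was possible because the deposited values are pooled over animals, and for the same reason no animal could be left out.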
